A study of Mus musculus with 9 samples.

Results

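The MYC, MAX and MXD network was followed through 9 RNA-seq libraries of mouse bone marrow cells transformed with BCR/ABLp185. Its 10 genes were chosen by name: the MYC genes Myc, Mycn and Mycl, the shared partner Max, the MXD genes Mxd1, Mxd3, Mxd4 and Mxi1, and the further MAX partners Mnt and Mga. They were looked up by gene identifier among the 50686 genes of the count tables, and all 10 were among the 13852 genes that passed the filter on low counts. Mycl passed only with the help of its wt libraries.

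MYC is a transcription factor that binds DNA as a dimer with MAX, at E-boxes with the core CACGTG, and activates genes of ribosome formation, nucleotide synthesis, glycolysis and the cell cycle. The MXD proteins, MNT and MGA also need MAX as a partner and bind the same E-boxes, where MXD and MNT recruit the SIN3 corepressor and MGA belongs to a Polycomb complex, so that activators and repressors share 1 partner and 1 site. MYC is a driver of B-cell leukemia and lymphoma, and MXD proteins are known from resting and differentiating cells.

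The study set out to separate the parts of STAT5A and STAT5B, transcription factors that BCR/ABL activates, in transformed cells. Polyadenylated RNA was sequenced from C57BL/6N bone marrow cells that had been turned into permanent lines by BCR/ABLp185. The 3 lines were a wt line, a Stat5a-/- line with both Stat5a alleles knocked out, and a Stat5b-/- line with both Stat5b alleles knocked out. All 3 lines carry BCR/ABL and grew in the same serum-containing medium without an added agent. Each genotype is 1 line with 3 technical replicates, so the tests measure the spread between libraries, and what belongs to a genotype and what belongs to a line cannot be told apart.

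The libraries held between 11948136 and 19016396 counted reads. Stat5a fell 3.47-fold in Stat5a-/- and Stat5b fell 1.66-fold in Stat5b-/- against wt, with 12.4 ± 1.02 and 63.4 ± 7.72 normalized CPM (SD, n = 3) left. The other STAT5 gene was higher than in wt by edgeR's quasi-likelihood test. Stat5a was 1.94-fold higher in Stat5b-/- (adjusted p = 5.95e-05) and Stat5b 1.34-fold higher in Stat5a-/- (adjusted p = 0.00942). The latter call was lost in 4 of 20 alternatives. CPM are read counts scaled to a common library size after TMM normalization. The B-lineage identity was checked with 10 markers. Their summed level lay between 4722 and 5026 CPM in wt, between 6558 and 7278 in Stat5a-/- and between 5789 and 6635 in Stat5b-/-, although Rag1, a recombinase gene, stood at 64.7 ± 2.06 CPM in wt against 0.158 ± 0.0786 in Stat5a-/- and 0.667 ± 0.18 in Stat5b-/-. Of the 10, 6 were higher and 2 lower than wt in Stat5b-/- at an adjusted p under 0.05, and 7 and 1 in Stat5a-/-. Of all genes tested, 24.2% were higher and 22.0% lower in Stat5b-/-, and 19.8% and 16.3% in Stat5a-/-. RNA of 16 T-cell markers was present in every library and differed with the line: it summed to between 841 and 1125 CPM in wt, 1527 and 1758 in Stat5a-/- and 1926 and 2701 in Stat5b-/-, and none of the 16 was without reads in a line. The sums of 10 myeloid and of 8 erythroid markers stayed at or under 14.8 CPM in each library, and the myeloid markers Elane and Ctsg had no reads in either knockout line. The part of these differences in the results was not tested. In bulk RNA, fewer cells of a type and less RNA per cell cannot be told apart.

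The promoters of the network genes were searched for the E-box CACGTG and for TTCNNNGAA, the palindrome that STAT5 dimers recognise. Both motifs read the same on either strand and cannot overlap each other. RefSeq (GRCm38.p6) windows of 250 bases before to 50 bases after a start site were used for 9 of the 10 genes, all but Myc, with 3 windows for Mxi1 and 11 in all. TTCNNNGAA was in 0 of these 11 windows, against 8.3% of 32851 promoters of the same length. CACGTG was in 3 of the 11, those of Mxd4, Mnt and Max, against 7.15% of the promoters. These 3 are shown because they hold the site to which the network's own dimers bind, with the E-box in capitals. It begins at position -219 from the start site in Mxd4 (chr5:34187661-34187960, minus strand), -123 in Mnt (chr11:74830674-74830973, plus strand) and -3 in Max (chr12:76962199-76962498, minus strand).
Mxd4: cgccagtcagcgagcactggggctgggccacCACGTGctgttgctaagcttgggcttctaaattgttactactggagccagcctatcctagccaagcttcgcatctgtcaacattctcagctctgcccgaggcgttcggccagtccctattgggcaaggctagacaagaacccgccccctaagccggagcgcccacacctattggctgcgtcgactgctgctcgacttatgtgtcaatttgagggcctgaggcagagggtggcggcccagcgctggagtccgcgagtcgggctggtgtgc
Mnt: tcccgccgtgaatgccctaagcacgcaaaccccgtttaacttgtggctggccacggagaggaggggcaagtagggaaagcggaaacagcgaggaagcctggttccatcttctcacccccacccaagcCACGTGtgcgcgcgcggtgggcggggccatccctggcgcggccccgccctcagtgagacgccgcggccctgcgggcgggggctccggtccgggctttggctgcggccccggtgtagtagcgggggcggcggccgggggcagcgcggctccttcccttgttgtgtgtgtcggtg
Max: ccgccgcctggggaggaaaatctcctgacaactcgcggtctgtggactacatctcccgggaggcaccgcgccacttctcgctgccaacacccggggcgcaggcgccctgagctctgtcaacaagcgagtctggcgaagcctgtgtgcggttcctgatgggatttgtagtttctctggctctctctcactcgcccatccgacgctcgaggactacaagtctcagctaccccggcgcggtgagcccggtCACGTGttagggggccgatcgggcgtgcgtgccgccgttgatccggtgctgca

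The windows of Mycn (chr12:12941787-12942086, minus strand) and Mxd3 (chr13:55329682-55329981, minus strand) are shown because these 2 genes had the highest log2 fold changes of the network in Stat5b-/- against wt (1.20 and 1.53). Neither holds CACGTG or TTCNNNGAA in these letters.
Mycn: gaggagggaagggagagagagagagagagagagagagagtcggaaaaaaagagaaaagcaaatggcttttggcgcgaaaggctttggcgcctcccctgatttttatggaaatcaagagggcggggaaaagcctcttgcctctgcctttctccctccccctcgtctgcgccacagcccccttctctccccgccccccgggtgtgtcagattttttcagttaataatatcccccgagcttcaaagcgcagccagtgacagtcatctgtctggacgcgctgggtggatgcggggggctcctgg
Mxd3: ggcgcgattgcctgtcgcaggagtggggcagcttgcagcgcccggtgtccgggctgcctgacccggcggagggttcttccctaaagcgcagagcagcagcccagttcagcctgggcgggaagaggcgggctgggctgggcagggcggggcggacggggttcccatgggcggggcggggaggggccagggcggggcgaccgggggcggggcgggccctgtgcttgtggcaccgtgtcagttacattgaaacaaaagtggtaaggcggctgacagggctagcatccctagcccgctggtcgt

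Myc, the gene of the main activator (ENSMUSG00000022346.15, chr15:61985391-61990374 of GRCm38), had the highest level per kilobase of the 10 in each line and fell in both knockouts. Its level was 1149.8, 1059 and 1165 normalized CPM in wt, 719.7, 723 and 857 in Stat5a-/- and 329.7, 305 and 247 in Stat5b-/-. The libraries fell into 3 separate bands, wt above Stat5a-/- and Stat5a-/- above Stat5b-/-. Against wt, Myc fell 3.82-fold in Stat5b-/- (log2 fold change -1.93, SE 0.13, adjusted p = 5.29e-08) and 1.47-fold in Stat5a-/- (-0.55, SE 0.12, adjusted p = 0.00287). The lines also differed directly, with Myc 2.61-fold lower in Stat5b-/- than in Stat5a-/- (log2 fold change -1.38, SE 0.12, adjusted p = 2.26e-06). These p-values, like those that follow, were adjusted by the Benjamini-Hochberg method over all genes tested, after the quasi-likelihood test of edgeR.

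Mycn, which encodes the neural and progenitor form of MYC (ENSMUSG00000037169.14, chr12:12936096-12941914, minus strand), rose in both knockouts. It stood at 68.1, 66.4 and 70 CPM in wt, at 150.1, 144 and 191 in Stat5a-/- and at 172, 173 and 126 in Stat5b-/-. Each knockout library exceeded each wt library, and the ranges of the 2 knockouts overlapped. The log2 fold change against wt was 1.20 (SE 0.14, adjusted p = 1.43e-05) in Stat5b-/- and 1.24 (SE 0.14, adjusted p = 1.22e-05) in Stat5a-/-, comparisons that share their wt libraries. Between the knockouts it was -0.04 (SE 0.14, adjusted p = 0.839).

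Mycl, the third MYC gene (ENSMUSG00000028654.13, chr4:122995652-123002485), was at the edge of detection. It had 30 to 41 reads in a wt library, 4 to 8 in Stat5a-/- and 8 to 12 in Stat5b-/-, or 1.98 ± 0.357, 0.469 ± 0.101 and 0.728 ± 0.108 CPM (SD, n = 3). The knockout libraries lay below the wt libraries, with log2 fold changes of -1.42 (SE 0.28, adjusted p = 9.67e-04) in Stat5b-/- and -2.03 (SE 0.31, adjusted p = 1.68e-04) in Stat5a-/-. Since Mycl needed its wt libraries to pass the filter, these are given as a description.

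Max, the partner that each dimer of the network needs (ENSMUSG00000059436.13, chr12:76937269-76962201, minus strand), moved little. Its level was 217, 229 and 239 CPM in wt, 204, 202 and 197 in Stat5a-/- and 197, 173 and 185 in Stat5b-/-. Both knockouts lay below wt in each library. The log2 fold change was -0.30 (SE 0.09, adjusted p = 0.0149) in Stat5b-/- and -0.18 (SE 0.09, adjusted p = 0.139) in Stat5a-/-. The call in Stat5b-/- was lost without wt replicate 3 (-0.27, adjusted p = 0.0711) and without Stat5b-/- replicate 2 (-0.26, adjusted p = 0.0658).

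**Figure D1:**
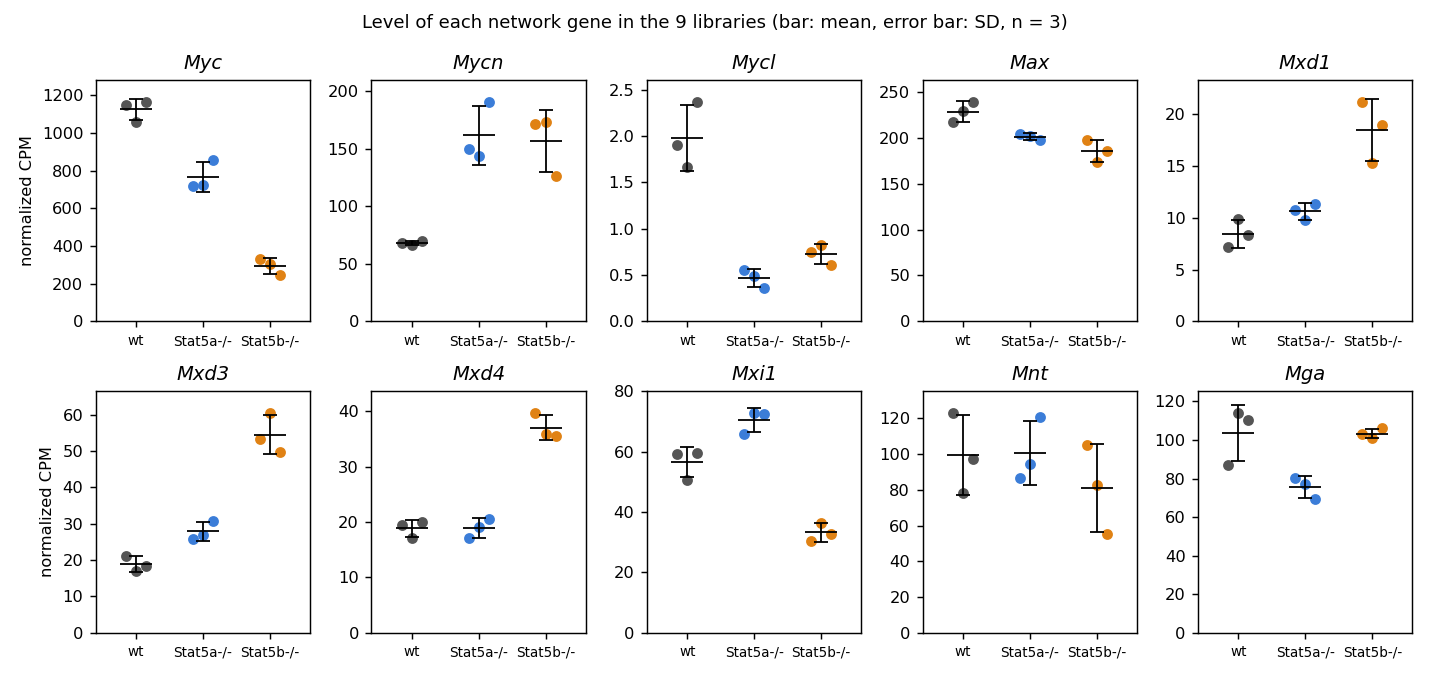
Normalized CPM of each of the 10 network genes (vertical axes, linear from 0, a scale of its own for each gene) in the 3 wt, 3 Stat5a-/- and 3 Stat5b-/- libraries (points), with the mean and SD. Myc steps down from 1124 in wt to 767 in Stat5a-/- and 294 in Stat5b-/-, Mycn sits at 68.1 in wt against 162 and 157 in the knockouts, and Mxd3 steps up from 18.9 to 27.9 and 54.5.

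Of the 4 MXD genes, which encode repressors that compete with MYC for MAX, 3 rose and 1 fell in Stat5b-/- against wt. Of all genes tested, 24.2% were called higher and 22.0% lower in this comparison. Mxd3, whose product is found in dividing cells of the S phase (ENSMUSG00000021485.13, chr13:55325168-55329758, minus strand), showed the largest rise of the 10 genes. It had 21.2, 17.1 and 18.3 CPM in wt, 25.9, 26.9 and 30.8 in Stat5a-/- and 53.3, 60.4 and 49.7 in Stat5b-/-. The 3 lines did not overlap. Mxd3 was 1.53 higher on the log2 scale in Stat5b-/- than in wt (SE 0.12, adjusted p = 4.77e-07), 0.57 higher in Stat5a-/- than in wt (SE 0.13, adjusted p = 0.00316) and 0.97 higher in Stat5b-/- than in Stat5a-/- (SE 0.12, adjusted p = 5.67e-05). Of its exon bases 5% are shared with Prelid1 on the other strand, where reads counted without strand were dropped.

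Mxd4 (ENSMUSG00000037235.13, chr5:34173883-34187720, minus strand) differed from wt in Stat5b-/- and was not called in Stat5a-/-. It had 19.4, 17.2 and 20 CPM in wt, 17.1, 19.2 and 20.6 in Stat5a-/- and 39.7, 35.9 and 35.6 in Stat5b-/-. The wt and Stat5a-/- ranges overlapped and the Stat5b-/- libraries lay above both. The difference from wt was 0.97 on the log2 scale in Stat5b-/- (SE 0.12, adjusted p = 1.58e-05) and 0.00 in Stat5a-/- (SE 0.12, adjusted p = 0.984), and that between the knockouts was tested directly at 0.97 (SE 0.12, adjusted p = 3.45e-05). Mxd4 shares 6.06% of its exon bases with Gm42846.

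Mxd1, the MAD1 repressor of differentiating blood cells (ENSMUSG00000001156.9, chr6:86647042-86669161, minus strand), followed the same order at a lower level. It had 7.17, 9.85 and 8.37 CPM in wt, 10.8, 9.76 and 11.3 in Stat5a-/- and 21.2, 15.3 and 19 in Stat5b-/-. The Stat5b-/- libraries were apart from both other lines, which overlapped. The log2 fold change was 1.12 in Stat5b-/- against wt (SE 0.16, adjusted p = 8.11e-05), 0.32 in Stat5a-/- against wt (SE 0.17, adjusted p = 0.152) and 0.80 between the knockouts (SE 0.16, adjusted p = 0.002).

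Mxi1, also called MXD2 (ENSMUSG00000025025.13, chr19:53310506-53375810), went the other way. It shares 3.45% of its exon bases with Gm10197. Its level was 59.3, 50.7 and 59.7 CPM in wt, 66, 72.8 and 72.6 in Stat5a-/- and 30.4, 36.5 and 32.8 in Stat5b-/-. The libraries fell into 3 bands with Stat5a-/- highest and Stat5b-/- lowest. Mxi1 fell by 0.77 on the log2 scale in Stat5b-/- against wt (SE 0.11, adjusted p = 9.07e-05) and was 1.08 lower there than in Stat5a-/- on the same scale (log2 fold change -1.08, SE 0.11, adjusted p = 8.16e-06). Its rise in Stat5a-/- against wt was small (0.32, SE 0.11, adjusted p = 0.0358) and was lost under the replicate block (0.32, adjusted p = 0.0805), with no filter on low counts (0.30, adjusted p = 0.105) and when any of 5 libraries was left out, namely wt replicate 2 or 3 or any Stat5a-/- replicate (log2 fold change 0.24 to 0.36, adjusted p = 0.0564 to 0.158).

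The 2 remaining MAX partners were not called in Stat5b-/- against wt. Mnt, a broadly expressed repressor (ENSMUSG00000000282.12, chr11:74830920-74845725), varied more between libraries of a line than between lines, with 123, 78.2 and 97.5 CPM in wt, 86.6, 94.4 and 121 in Stat5a-/- and 105, 82.8 and 55.5 in Stat5b-/-. It was called in no comparison by edgeR's quasi-likelihood test (adjusted p = 0.287, 0.972 and 0.297). Mga, a very large protein that joins MAX to a Polycomb complex (ENSMUSG00000033943.15, chr2:119897228-119969581), had 86.8, 114 and 110.2 CPM in wt, 80.4, 77.1 and 69.6 in Stat5a-/- and 103, 101 and 106 in Stat5b-/-. Only the Stat5a-/- line was set apart: Mga fell by 0.45 on the log2 scale there against wt (SE 0.11, adjusted p = 0.00693) and was 0.45 higher in Stat5b-/- than in Stat5a-/- (SE 0.11, adjusted p = 0.00892).

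**Figure D2:**
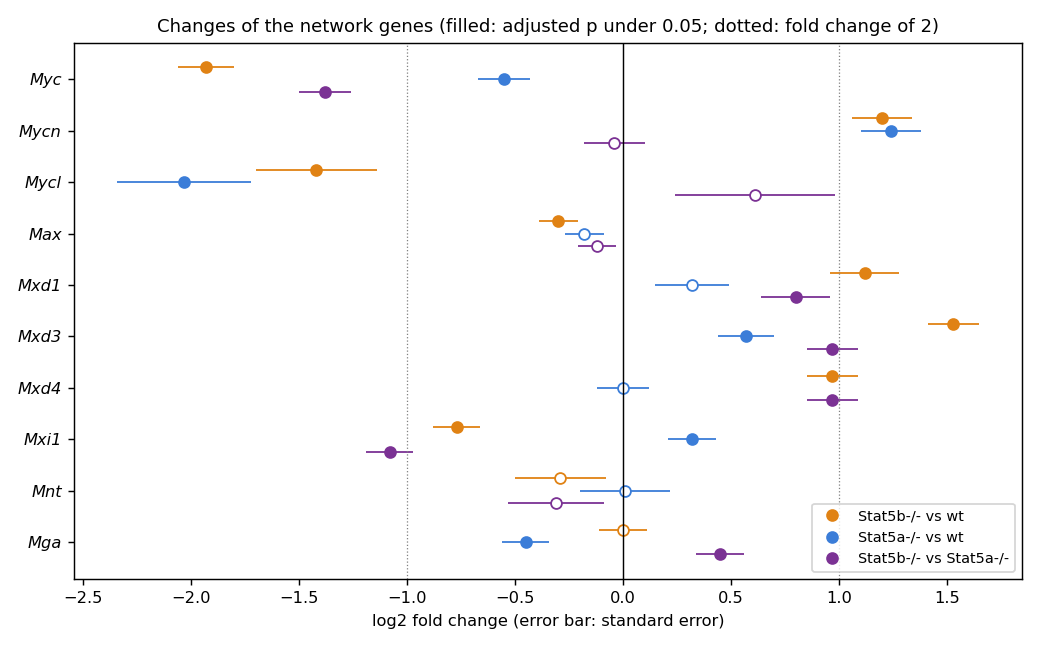
Log2 fold change (horizontal axis, error bars are SE) of the 10 network genes in Stat5b-/- against wt, Stat5a-/- against wt and Stat5b-/- against Stat5a-/-, filled where the adjusted p was under 0.05. In Stat5b-/- against wt Myc sits at -1.93 and Mxd3 at 1.53, whereas the 2 changes of Mycn against wt, 1.20 and 1.24, lie side by side.

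Counted over the network, 8 of 10 genes differed between Stat5b-/- and wt, 4 of them higher and 4 lower. Of all genes tested 46.2% were called in this comparison, 24.2% higher and 22.0% lower, and 19.1% were called with a fold change over 2 as well, as were 5 network genes. Libraries of the 2 lines did not overlap for 8 network genes and for 54.2% of all genes. For Stat5a-/- against wt, 6 of 10 were called, 3 higher and 3 lower, against a background of 36.0%, of which 19.8% higher and 16.3% lower, and 2 were past both limits (14.2% of all genes). The libraries did not overlap for 7 of 10 (49.2%). Between the knockouts, 6 of 10 were called, 4 higher and 2 lower in Stat5b-/-, against 33.9%, 16.4% and 17.5% of all genes, with 2 past both limits (11.4%) and 7 that did not overlap (44.8%). The count of 2 past both limits between the knockouts became 4 without Stat5a-/- replicate 3, without Stat5b-/- replicate 3 and with an offset for GC content. Without Mycl, which needed its wt libraries to be tested, 7 genes were called in Stat5b-/- against wt (4 higher, 3 lower, 4 past both limits) and 5 in Stat5a-/- against wt (3 higher, 2 lower, 1 past both limits), and 6 between the knockouts. Libraries did not overlap for 7, 6 and 6 genes other than Mycl in these comparisons.

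Levels per kilobase of gene model, which allow genes to be set beside each other, put Myc first in each line and Max, by its mean only in the knockouts, second. In wt, Myc stood at 414 CPM per kb and Max at 63.5, followed by Mnt at 21.5 and Mycn at 20.7, which overlapped. In Stat5a-/-, Myc was at 282, with Max at 55.9 and Mycn at 49.1 overlapping. In Stat5b-/-, Myc was at 108, Max at 51.4 and Mycn at 47.6, again with the last 2 overlapping. Mxd3 had rank 6 in wt at 9.06 CPM per kb and rank 4 in Stat5b-/- at 26.2, above Mnt at 17.5 with no overlap. Mycl was last in each line, at 0.49, 0.116 and 0.18.

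The summed level of the network was 549 ± 26.6 CPM per kb in wt, 444 ± 40.9 in Stat5a-/- and 271 ± 31.3 in Stat5b-/- (SD, n = 3). Myc made up 75.3% ± 0.217 of it in wt, 63.6% ± 0.624 in Stat5a-/- and 39.9% ± 1.21 in Stat5b-/-. This share varied by little within a line and by far more between lines. Within the MYC genes, Mycn took 4.76% ± 0.135 in wt, 14.8% ± 0.725 in Stat5a-/- and 30.5% ± 1.21 in Stat5b-/-. Even so, the 3 MYC genes together came to 435 ± 21.8 CPM per kb in wt, 331 ± 36.6 in Stat5a-/- and 156 ± 23.6 in Stat5b-/-, so the summed level followed Myc. Shares and ratios are descriptions and were not tested.

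On the repressor side the MXD genes summed to 22.6 ± 1.72, 29.7 ± 2 and 39.1 ± 2.69 CPM per kb in wt, Stat5a-/- and Stat5b-/-. Their makeup differed as well. Mxi1 and Mxd3 held nearly equal shares of the MXD level in wt, 44.6% ± 1.48 and 40.1% ± 2.1, and Stat5a-/- was similar with 42.3% ± 1.59 and 45.1% ± 1.45. In Stat5b-/-, Mxd3 held 66.9% ± 2.1 and Mxi1 15.1% ± 1.03. The ratio of the MYC genes to the MXD genes and Mnt was 8.78, 10.9 and 10.2 in the wt libraries, 6.68, 6.21 and 6.46 in Stat5a-/- and 2.83, 2.76 and 2.66 in Stat5b-/-. The ratio of Myc to Max was 6.53 ± 0.466, 5.05 ± 0.608 and 2.11 ± 0.296. In both ratios the 3 lines were apart in each library.

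**Figure D3:**
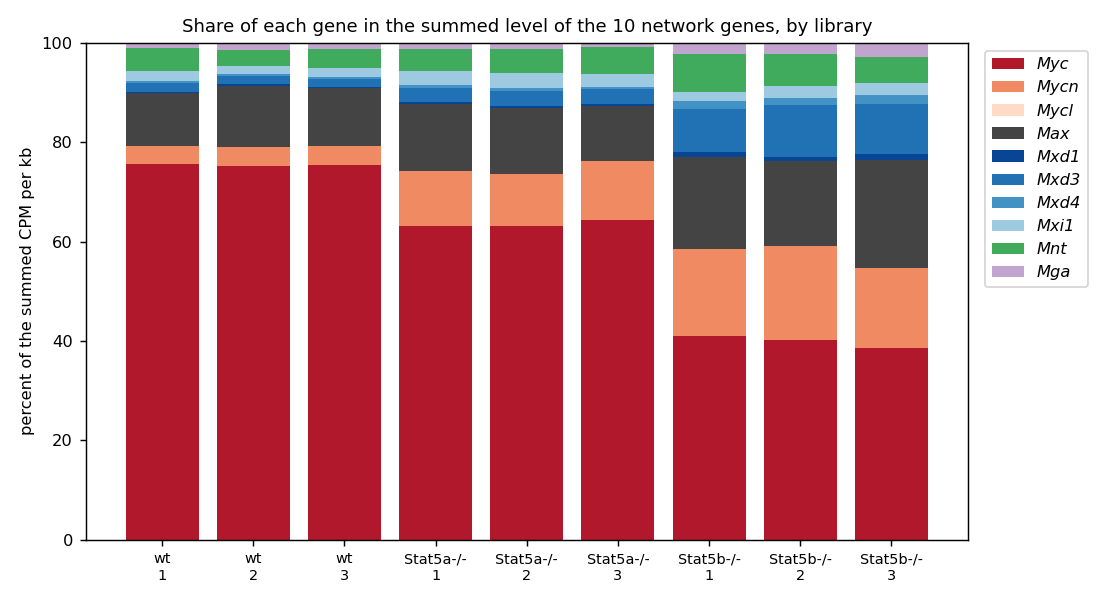
Share of each network gene (vertical axis, percent) in the summed CPM per kb of the 10 genes, for each of the 9 libraries (bars). Myc covers about the same share in the 3 libraries of a line, on average 75.3% in wt against 63.6% and 39.9% in Stat5a-/- and Stat5b-/-. The shares of Mycn and Mxd3 are largest in Stat5b-/-, where the total is lowest. The mean level of Mycn is no higher there than in Stat5a-/-.

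Genes that MYC is known to activate were described next, from a list of 32 that were all tested. In Stat5b-/- against wt 23 of them fell and 1 rose, with a median log2 fold change of -0.61 against 0.02 for all genes tested, of which 22.0% were called lower and 24.2% higher. The polyamine enzyme gene Srm fell most, from 771 ± 111 to 276 ± 36.3 CPM (log2 fold change -1.48, SE 0.14, adjusted p = 2.80e-06). The glycolytic gene Eno1 (-1.22, SE 0.10, adjusted p = 5.18e-07) and the mitochondrial chaperone gene Hspd1 (-1.15, SE 0.11, adjusted p = 1.90e-06) followed. Smaller falls were found for nucleolin, Ncl (-0.61, SE 0.16, adjusted p = 0.00576), for the ornithine decarboxylase gene Odc1 (-0.54, SE 0.17, adjusted p = 0.0214) and for the cell-cycle kinase gene Cdk4 (-0.28, SE 0.09, adjusted p = 0.0242). The call of Cdk4 was lost under the replicate block and without wt replicate 1 or 3 or Stat5b-/- replicate 1 (adjusted p = 0.0506 to 0.0832), and that of Odc1 without wt replicate 2 (adjusted p = 0.0507). Cad, of pyrimidine synthesis, had -0.26 (SE 0.17, adjusted p = 0.241) and was called lower with the GC offset (-0.30, adjusted p = 0.022). The gene that rose was E2f2, a cell-cycle transcription factor, at 109 ± 13.5 CPM in wt and 293 ± 61.6 in Stat5b-/- (1.42, SE 0.17, adjusted p = 1.33e-05).

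In Stat5a-/- against wt, 11 of the 32 fell and 1, again E2f2 (1.11, SE 0.16, adjusted p = 1.38e-04), rose. Of all genes tested 16.3% were called lower and 19.8% higher. The median was -0.29 against 0.01 for all genes. The count of 11 became 6 without wt replicate 3 and 21 with the offset for GC content. Srm had -0.49 (SE 0.14, adjusted p = 0.0156) and Hspd1 -0.68 (SE 0.11, adjusted p = 2.30e-04), while Eno1 had -0.14 (SE 0.10, adjusted p = 0.307) and was called with the GC offset (-0.27, adjusted p = 0.00634). The call of Srm in Stat5a-/- was lost without wt replicate 1 or 3 or Stat5a-/- replicate 1 or 2 (adjusted p = 0.0529 to 0.0674). Tested directly, 14 of the 32 were lower and 0 higher in Stat5b-/- than in Stat5a-/- by edgeR's quasi-likelihood test (17.5% and 16.4% of all genes), among the lower ones Srm (-0.99, SE 0.14, adjusted p = 1.67e-04) and Eno1 (-1.08, SE 0.10, adjusted p = 3.01e-06). With the GC offset 3 were higher, with no filter on low counts 2, without Stat5b-/- replicate 3 2 and without Stat5a-/- replicate 3 1.

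**Figure D4:**
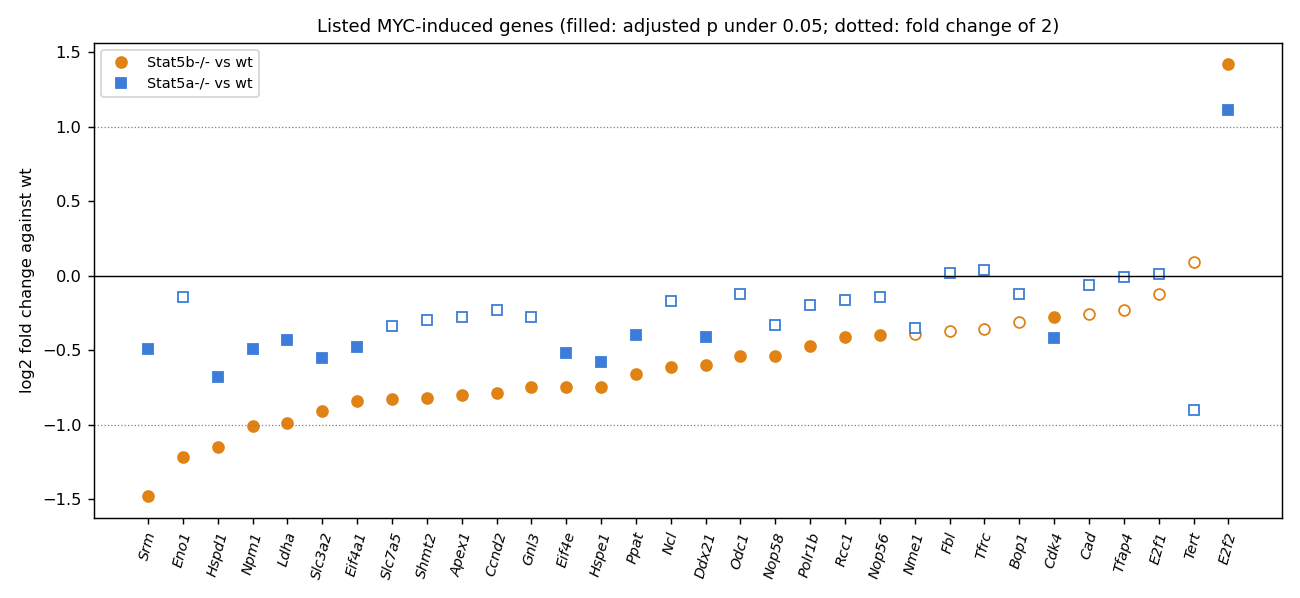
Log2 fold change against wt (vertical axis) of the 32 listed MYC-induced genes (horizontal axis, ordered by Stat5b-/-), circles for Stat5b-/- and squares for Stat5a-/-, filled where the adjusted p was under 0.05. The circles lie below 0 for all but E2f2 and Tert, 23 of them filled, and 11 squares are filled below 0.

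Of 7 genes that MYC is known to repress, 4 rose and 2 fell in Stat5b-/- (median 0.41 against 0.02 for all genes), and 3 rose and 1 fell in Stat5a-/- (0.13 against 0.01). Of all genes, 24.2% were called higher and 22.0% lower in Stat5b-/-, and 19.8% and 16.3% in Stat5a-/-. The stress gene Gadd45a rose in both, with log2 fold changes of 1.26 (SE 0.17, adjusted p = 5.53e-05) and 0.53 (SE 0.18, adjusted p = 0.033). Its call in Stat5a-/- was lost with the GC offset (0.32, adjusted p = 0.279), without any of the wt libraries and without Stat5a-/- replicate 1 or 2, and the 3 that rose there became 1 without wt replicate 2 or 3. Ndrg1, named for its control by MYCN, rose more in Stat5a-/-, from 2.47 ± 0.42 to 21.9 ± 1.52 CPM (3.14, SE 0.18, adjusted p = 1.77e-08), than in Stat5b-/-, where it reached 6.04 ± 1.14 (1.29, SE 0.19, adjusted p = 1.09e-04). The direct difference was -1.85 (SE 0.16, adjusted p = 2.21e-06). The order of Ndrg1 over the lines was thus not that of Myc. The cell-cycle inhibitor gene Cdkn2b fell in Stat5b-/- (-1.06, SE 0.24, adjusted p = 0.0032), as did the stress factor gene Ddit3 (-0.55, SE 0.10, adjusted p = 6.39e-04), which also fell in Stat5a-/- (-0.86, SE 0.10, adjusted p = 1.93e-05). Cdkn2b was low, with 47 to 53 reads in a wt library and 16 to 23 in a Stat5b-/- library.

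The genes of proteins with which the network works were read against the 46.2% of all genes called in Stat5b-/- and the 36.0% in Stat5a-/-. Of 17 listed genes of MYC coactivators and partners, 0 rose and 2 fell in Stat5b-/-, and 4 rose and 2 fell in Stat5a-/-, with median log2 fold changes of 0.06 and 0.10. The ATPase gene Ruvbl2 was lower in both knockouts (-0.78, SE 0.13, adjusted p = 3.20e-04 in Stat5b-/- and -0.41, SE 0.13, adjusted p = 0.0253 in Stat5a-/-), and Actl6a, its partner in chromatin complexes, was likewise lower (-0.46 and -0.50, SE 0.11 in both). These counts rested on few libraries. In Stat5a-/-, the 4 that rose became 1 without wt replicate 2 or 3 or Stat5a-/- replicate 3 and 2 without Stat5a-/- replicate 1, the 2 that fell became 1 without wt replicate 1 or 3 or Stat5a-/- replicate 1 or 2, and the call of Ruvbl2 was lost in those same 4 cases and under the replicate block (adjusted p = 0.0572 to 0.104). With the GC offset 2 rose and 4 fell in Stat5a-/-, the opposite balance. In Stat5b-/-, 1 gene of this list rose without Stat5b-/- replicate 3 and with the GC offset.

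Among 12 genes of SIN3 and related corepressors, through which MXD and MNT act, 3 rose and 1 fell in Stat5b-/- and 4 rose and 1 fell in Stat5a-/-, with medians of 0.03 and 0.02 and the same 46.2% and 36.0% of all genes called. The deacetylase gene Hdac1 rose in both (0.74 and 0.68, SE 0.11 in both), whereas the SIN3 subunit gene Sap30 fell (-0.62 and -0.43, SE 0.11 in both). Without Stat5b-/- replicate 1 the 3 that rose in Stat5b-/- became 1. Without Stat5a-/- replicate 3, 2 rather than 1 fell in either knockout, as was so without Stat5b-/- replicate 3 in Stat5b-/- and without Stat5b-/- replicate 1 in Stat5a-/-. The 1 that fell became 2 in both knockouts with the GC offset and with no filter on low counts, and in Stat5a-/- also with DESeq2, RLE normalization and only the 2 genotypes. Of 13 genes of the Polycomb complex that holds MGA, 2 rose and 4 fell in Stat5b-/- and 3 rose and 4 fell in Stat5a-/-, with medians of 0.06 and 0.00 and 46.2% and 36.0% of all genes called. Pcgf6, the subunit that defines the complex, fell in Stat5b-/- from 35.1 ± 2.91 to 15.8 ± 1.68 CPM (-1.16, SE 0.12, adjusted p = 3.74e-06) and had -0.32 in Stat5a-/- (SE 0.11, adjusted p = 0.0435), a call that was lost when any wt or Stat5a-/- library was left out (adjusted p = 0.0522 to 0.187) and with the GC offset (-0.22, adjusted p = 0.128). The complex's RING1 and YY1-binding subunit gene Rybp rose in both (0.72 and 0.60, SE 0.14 in both), and Ring1 itself rose by more in Stat5a-/- (0.99, SE 0.11, adjusted p = 1.22e-05) than in Stat5b-/- (0.60, SE 0.11, adjusted p = 7.63e-04), a difference of -0.40 (SE 0.11, adjusted p = 0.0152) that was lost with the GC offset (-0.14, adjusted p = 0.353) and without Stat5a-/- replicate 2 or 3 (adjusted p = 0.0516 and 0.0524). The 4 that fell in Stat5a-/- became 2 without wt replicate 2 or 3 and under the replicate block. E2f6, its DNA-binding repressor, fell more in Stat5a-/- (-1.41, SE 0.11, adjusted p = 3.28e-07) than in Stat5b-/- (-0.80, SE 0.11, adjusted p = 4.30e-05), and the knockouts differed by 0.61 (SE 0.11, adjusted p = 8.48e-04).

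Of 15 genes listed for the turnover of the MYC protein, 3 rose and 1 fell in Stat5b-/- and 2 rose and 3 fell in Stat5a-/-, with medians of -0.13 and -0.10 and 46.2% and 36.0% of all genes called. The ubiquitin ligase gene Skp2 fell in both knockouts, from 78 ± 5.23 CPM in wt to 40 ± 4.37 in Stat5b-/- (-0.96, SE 0.12, adjusted p = 1.87e-05) and 32.3 ± 3.14 in Stat5a-/- (-1.27, SE 0.12, adjusted p = 1.91e-06). Fbxw7, the ligase best known for MYC, had 0.38 (SE 0.14, adjusted p = 0.0443) in Stat5b-/- and 0.29 (SE 0.14, adjusted p = 0.133) in Stat5a-/-, where it was called with the GC offset (0.42, adjusted p = 0.00851). The 3 that rose in Stat5b-/- became 0 without wt replicate 3 and 1 with no filter on low counts, and the call of Fbxw7 was lost in 13 of 20 alternatives, DESeq2 among them (0.35, adjusted p = 0.0586). The 1 that fell there changed in 10 of 20 alternatives, to 3 with the GC offset and to 2 with DESeq2, RLE normalization, only the 2 genotypes and without Stat5a-/- replicate 3 or Stat5b-/- replicate 1 among others. The 3 that fell in Stat5a-/- became 5 with the GC offset. The ligase gene Stub1 rose in Stat5a-/- (0.68, SE 0.13, adjusted p = 0.0011) and stood at 0.13 in Stat5b-/- (SE 0.13, adjusted p = 0.459), with a direct difference of -0.56 (SE 0.13, adjusted p = 0.00587) that was lost with the GC offset and replicate block (-0.34, adjusted p = 0.0622). Stub1 and Ring1 lie on chromosome 17, whose median log2 fold change was 0.53 in Stat5a-/- against wt, 0.14 in Stat5b-/- against wt and -0.42 between the knockouts. MYC protein was not measured in these libraries. Of the parallel MLX branch, whose members respond to glucose, Mlx and Mlxip were called in no comparison, with log2 fold changes between -0.27 and 0.18. The change of Mlx in Stat5a-/- against wt was near the threshold (-0.27, SE 0.10, adjusted p = 0.0524) and was called with DESeq2 (-0.28, adjusted p = 0.0276), with RLE normalization, with the GC offset (-0.29, adjusted p = 0.0146) and without Stat5b-/- replicate 1 (-0.29, adjusted p = 0.0358). Between the knockouts Mlx was called with the GC offset (0.23, adjusted p = 0.045). The third gene of the branch, Mlxipl, had 0 reads in each library.

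The surroundings of each network gene on its chromosome were compared with the gene, using the 5 nearest tested genes on each side. Around Myc, the neighbours had a median log2 fold change of -0.19 in Stat5b-/- and -0.01 in Stat5a-/-, with 1 of 10 higher and 1 lower in Stat5b-/-. Of all genes tested, 24.2% were called higher and 22.0% lower in Stat5b-/- against wt, 19.8% and 16.3% in Stat5a-/- against wt, and 16.4% and 17.5% between the knockouts. The neighbour called lower was Pvt1, a long noncoding RNA gene that starts 52.6 kb from the start of Myc, which fell in Stat5b-/- (-1.44, SE 0.21, adjusted p = 1.02e-04) and had -0.38 in Stat5a-/- (SE 0.20, adjusted p = 0.15, and 0.0499 with only the 2 genotypes fitted). Its level was 8.27 ± 0.0771, 6.33 ± 0.488 and 3.06 ± 1.07 CPM in wt, Stat5a-/- and Stat5b-/-, the order of Myc at a far lower level. The nearest tested gene on the other side, 9930014A18Rik at a distance of 1163 kb, had -0.14 in Stat5b-/- (SE 0.24, adjusted p = 0.664). In Stat5a-/- it was at 0.61 (SE 0.22, adjusted p = 0.0492), a call lost with each of the 9 libraries left out (adjusted p = 0.0542 to 0.174), and between the knockouts at -0.75 (SE 0.23, adjusted p = 0.0255), a call lost with DESeq2 (adjusted p = 0.0539) and without Stat5a-/- replicate 1 or 2 or Stat5b-/- replicate 3 (adjusted p = 0.0646 to 0.0921).

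Most neighbours of Mxd1 were called higher than in wt. Of the 10 neighbours of Mxd1 on chromosome 6, between 86404219 and 87003223, 9 were higher in Stat5b-/- and 9 in Stat5a-/-, with medians of 1.00 and 0.96 where the whole chromosome had 0.22 and 0.09. Mxd1 itself, at 1.12 in Stat5b-/-, lay within the range of its neighbours (0.47 to 1.68), and at 0.32 in Stat5a-/- it lay below their median. Between the knockouts the neighbours had a median of 0.10 against 0.80 for Mxd1. For Mxi1, chromosome 19 as a whole had a median of 0.04 in Stat5b-/- and 0.41 in Stat5a-/- against wt. The 10 neighbours of Mxi1 had medians of -0.22 and 0.21. Mxi1 itself stood at -0.77 in Stat5b-/-, and its 0.32 in Stat5a-/- lay between the medians of its neighbours and its chromosome. Between the knockouts 6 of the 10 neighbours of Mxi1 were lower and 0 higher, with a median of -0.56. The chromosome had -0.42 and Mxi1 -1.08 in that comparison. Around Mnt, 2 neighbours rose and 5 fell in Stat5b-/- (median -0.63), and in Stat5a-/- they ranged from -1.14 to 4.82. Around Mxd3, 6 rose and 1 fell in Stat5b-/- (median 0.37), and around Mycl 2 rose and 4 fell (median -0.15), beside the 24.2% and 22.0% of all genes. For Mycn the medians in Stat5b-/- and Stat5a-/- were -0.03 and 0.12, and for Mxd4 -0.01 and -0.32.

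**Figure D5:**
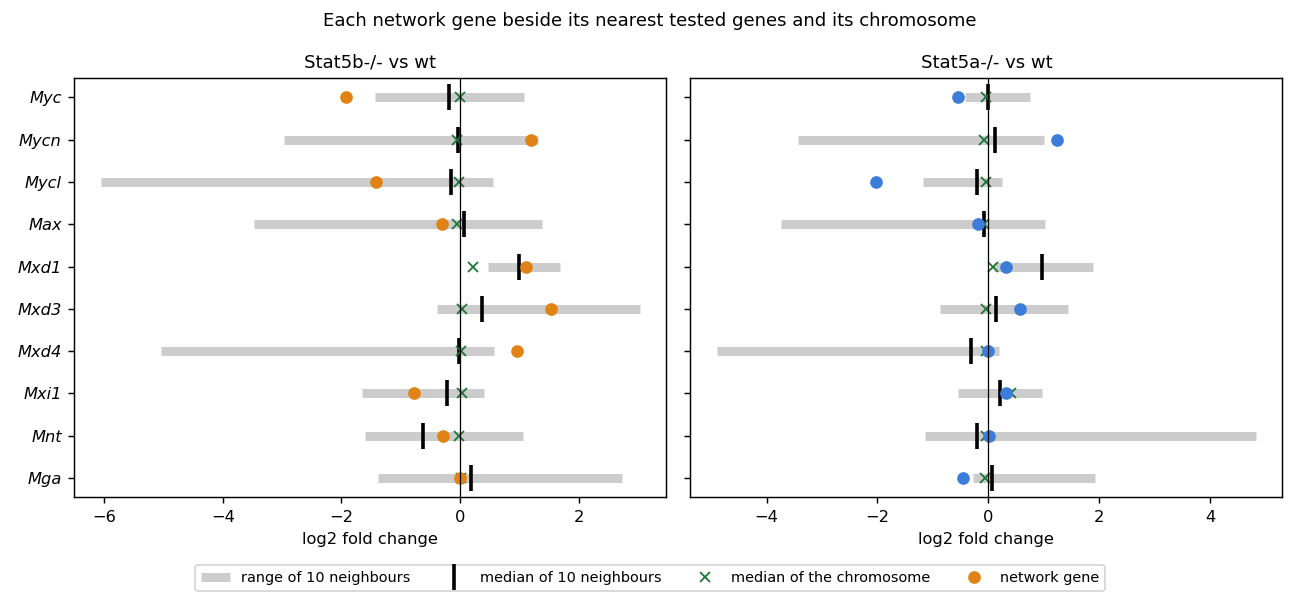
Log2 fold change (horizontal axes) of each network gene (filled circles) in Stat5b-/- against wt (left) and Stat5a-/- against wt (right), with the range (grey) and median (black tick) of its 10 nearest tested genes and the median of its chromosome (cross). Myc at -1.93 lies outside the range of its neighbours, whereas Mxd1 at 1.12 lies near their median of 1.00.

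The genes whose level over the 9 libraries followed that of Myc most closely were found by the root mean square distance of centred log2 CPM, among 8984 genes of sufficient level. They were Nr1d1 at 0.12, Bcorl1 at 0.14, Svil at 0.15, and Pla2g12a and B3gnt7 at 0.16 each. Nr1d1, a nuclear receptor of the circadian clock, had 136, 109 and 128 CPM in wt, 62.7, 70.3 and 90.2 in Stat5a-/- and 34.1, 30.2 and 23.5 in Stat5b-/-, which are the same 3 bands as for Myc. Since these genes were picked for this pattern, it is a description.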

How the data were processed

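RNA-seq was available for 9 libraries, with 3 technical replicates for each of the 3 lines. The authors removed adapters and poor reads from 50 bp single-end reads with Trimmomatic, mapped the rest with STAR to GRCm38 with the GENCODE M13 annotation and deposited the raw counts per gene from featureCounts 1.5.1. Per the file headers, strand was not used, and reads with several mapping places or genes were dropped. Groups follow the genotype labels and titles, although the free-text description of the knockout samples calls them wild type.

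Gene symbols were taken from GENCODE M21 and covered 50376 of 50686 genes. TMM normalization and the quasi-likelihood test of edgeR 4.0.16 (R 4.3.3; filterByExpr, glmQLFit and glmQLFTest, genotype only) were applied to all 9 libraries together and 13852 genes, and genes with a Benjamini-Hochberg adjusted p under 0.05 were called. The SE was derived by dividing the size of the log2 fold change by the root of F. The steps were tested on simulated counts. The network genes, lists and tests were chosen with earlier results of these data known. Beside the network, the genes named were Stat5a, Stat5b, Mlx, Mlxip, Mlxipl, Odc1, Ncl, Cad, Cdk4 and Pvt1, and, per list, up to 3 genes with the greatest called change in Stat5b-/- against wt and up to 2 in Stat5a-/- against wt whose libraries did not overlap. The 5 genes most like Myc, with an average log2 CPM of at least 3, and its nearest tested neighbours were named too. Some genes that this rule picks are not reported here. Tert (an exception in a figure) and the markers Rag1, Elane and Ctsg were added after their values were seen.

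As alternatives, DESeq2 1.42.0 and RLE normalization were used, the filter was dropped or set to an average of 10 counts, the fit was limited to the 2 genotypes in question, libraries were left out singly, the null was moved to a log2 fold change of 1, the adjusted p was relaxed to 0.1, TMM factors were computed without chromosomes 6, 17, 18, 19, X and Y, and the replicate number entered as a block. A GC offset (loess, span 0.5) was tried with and without that block. Depth lay between 11948136 and 19016396 reads per library. Replicates differed beyond sampling noise (chi-square per degree of freedom 5.05 to 31.4). Molecular identifiers were not used, so reads do not count independent molecules.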

Additional observations from a re-analysis of the deposited data

How the results depend on the processing

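Over 20 alternatives, the fall of Myc kept its direction in the 3 comparisons, with log2 fold changes of -2.05 to -1.82 in Stat5b-/- against wt, -0.74 to -0.50 in Stat5a-/- against wt and -1.48 to -1.22 between the knockouts, and lost its call only in Stat5a-/- against wt (-0.55) when tested against a log2 fold change of 1. That stricter test called 2, 1 and 1 network genes in Stat5b-/- against wt, Stat5a-/- against wt and Stat5b-/- against Stat5a-/-, the same numbers past both limits, and 1361, 1217 and 763 of all genes. Without Mycl, the edgeR test against that limit called 2, 0 and 1 network genes (3, 1 and 1 at an unadjusted p under 0.05). With each library left out in turn, network genes called numbered 7 to 8, 5 to 6 and 6 to 6, those past both limits 4 to 6, 2 to 2 and 2 to 4, and all genes called 5311 to 6837, 3960 to 5357 and 3706 to 4786. The 2 past both limits between the knockouts became 4 with the GC offset and 4 with the GC offset and replicate block, and the cause was not tested.

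Libraries of the same replicate number did not, on average, deviate together. Deviations from the line mean in the 9 same-numbered pairs had a mean correlation of -0.0877 across genes, with single pairs from -0.445 to 0.216. The mean of the 18 other pairs, 0.0438, follows largely from centring each line on its own mean and is no separate check. With the replicate block, 8, 5 and 6 network genes were called and 5754, 4313 and 3895 genes in all. Mxi1 in Stat5a-/- against wt was the network gene lost (adjusted p = 0.0805).

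The direction turned only in differences close to 0 that were not called. In Stat5b-/- against wt, Mga (0.00) stood at 0.06 without wt replicate 2, 0.04 without wt replicate 3, 0.01 without Stat5b-/- replicate 2, 0.01 with TMM factors without chromosomes 6, 17, 18, 19, X and Y, and 0.02 with the GC offset, with or without the block, and Mlxip between -0.23 and 0.05 with a library left out, the latter without Stat5b-/- replicate 3. In Stat5a-/- against wt, Mxd4 stood at -0.12 with the GC offset, with or without the block, at -0.01 with DESeq2, RLE normalization and only the 2 genotypes, at -0.02 with no filter on low counts, and between -0.09 and -0.02 where wt replicate 2 (-0.06), Stat5a-/- replicate 2 or 3 or Stat5b-/- replicate 1 was left out. Mnt stood at -0.18 with the GC offset, -0.17 with the block added, 0.00 with DESeq2 and RLE normalization, -0.01 with no filter, and from -0.17 to 0.19 with a library left out, below 0.01 without wt replicate 2 (-0.14) or 3, Stat5a-/- replicate 3 or Stat5b-/- replicate 1 (-0.01). Cdkn2b stood at 0.04 with TMM factors without those chromosomes and at 0.01, 0.06 and 0.11, Cad between -0.28 and 0.06 and Mlxip between 0.00 and 0.17, with a library left out. Between the knockouts, Mycn stood at 0.12 with the GC offset, with or without the block, and between -0.13 and 0.10 with a library left out, the latter without replicate 3 of either knockout, Fbxw7 at -0.02 with the GC offset, with or without the block, and between -0.01 (without Stat5a-/- replicate 3) and 0.15 with a library left out, and Cad from -0.33 to 0.00 and Hdac1 down to 0.00 in the same way.

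Deviations of a library from the mean of its line correlated with GC content across genes by up to 0.529 in absolute value. This GC bias between replicates and the few reads of Mycl and Cdkn2b limit small differences and low genes.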
